A study of Mus musculus with 6 samples.

Results

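A set of 10 transcription factor genes that are used to mark the stem cell compartments of the mouse hair follicle was followed in sorted keratinocytes of denervated and normally innervated back skin. It comprised Sox9, Runx1, Nfatc1, Lhx2, Tbx1, Foxc1, Gata3, Gata6, Tcf7l1 and Tcf7l2, chosen by symbol, and all 10 were among the 24982 rows of the deposited count matrix. All 10 also passed the filter on low counts, which kept 12310 genes. The denervated group held 3 libraries, 1 from the left dorsal skin of each of 3 mice, numbered 890, 892 and 899, whose cutaneous nerves on that side had been dissected away 4 weeks before sampling. The normal group held 3 libraries from the right dorsal skin of the same 3 mice, where the nerves were left in place. All mice carried both Lgr6-EGFP-Ires-CreERT2 and the reporter R26loxP-stop-loxP-tdTom, and received 20 µg of tamoxifen at postnatal day 42. In this genotype the Lgr6 locus drives the inducible Cre, so that tdTomato marks cells that expressed Lgr6 at that time and their descendants. Cells positive for GFP, tdTomato and Itga6 (CD49f) were sorted, and poly(A) RNA was sequenced. No sham dissection of the right side is described. Nerve loss, dissection and side of the body therefore cannot be told apart. The labels give neither the age at sampling nor the sex.

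The hair follicle keeps separate pools of stem cells along its length. The bulge and the hair germ below it regrow the hair, the isthmus and infundibulum above it maintain the upper follicle and the sebaceous gland opening, and the basal layer of the epidermis between follicles renews the skin surface. Sox9, Lhx2, Nfatc1, Tbx1, Tcf7l1 and Tcf7l2 are known from mouse skin as factors of the bulge. Runx1 is known from the bulge, the hair germ and the upper outer root sheath, and Foxc1 from activated bulge cells. Gata6 marks the junctional zone and the sebaceous duct, and Gata3 is known from the inner root sheath and from the epidermis itself. Lgr6 cells lie mainly in the isthmus and the basal epidermis, so these genes are read here in a population that is not a purified bulge. The mRNA came from bulk samples, where fewer cells of a type and less RNA per cell cannot be told apart.

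The 3 denervated libraries held between 9610071 and 14021730 counts and the 3 normal libraries between 13801154 and 26167593, lower on the denervated side in each animal. A floor of 3 counts stood at 0.214 to 0.312 CPM (counts scaled to library size) in denervated and 0.115 to 0.217 CPM in normal libraries, for counting error alone. The basal keratinocyte identity of the sort was seen in Krt5, the keratin of basal cells, at 17670 to 21783 CPM in denervated and 18797 to 20132 CPM in normal libraries, in its partner keratin Krt14 (11864 to 15457 and 12415 to 12701 CPM) and in Itga6 (1582 to 1653 and 1408 to 1444 CPM). Lgr6 itself stood at 78.8 to 108 CPM in denervated and 87.8 to 105 CPM in normal libraries. None of these 4 genes passed the test. Keratins of suprabasal cells were abundant too, at levels above Itga6. Krt10 had 3960 to 5302 CPM in denervated and 4971 to 5374 CPM in normal libraries, and Krt1 had 2390 to 3182 and 2926 to 3135 CPM. Both were named after their values were seen. The basal genes therefore do not show that the sort held basal cells alone. The denervated library of animal 890 stood apart on the leading principal component of log2 CPM, at 37.6, next to 9.73 for the normal library of the same animal and between −24.5 and −0.711 for the other libraries.

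Per unit of transcript length (TPM, as deposited), the 10 factors spanned a wide range in these cells. Gata3 was the most abundant, at 260 ± 44.4 TPM in denervated and 274 ± 20.7 TPM in normal libraries (SD, n = 3 each, as in all values of this form). Nfatc1, which acts downstream of calcineurin and BMP signals to hold bulge cells quiescent, came next at 61.5 ± 8.43 and 46.0 ± 7.02 TPM. Sox9, which is required to set up and keep the bulge lineage, stood at 28.3 ± 8.99 TPM in denervated and 21.9 ± 4.39 TPM in normal libraries. The ranges of Gata3, Nfatc1 and Sox9 over the 6 libraries did not overlap each other, while the range of Sox9 (19.0 to 38.7 TPM) touched that of Tcf7l2 (11.9 to 19.4 TPM).

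A middle group of 5 genes was ordered in part. Tcf7l2, Foxc1, Lhx2, Gata6 and Runx1 had means over 6 libraries of 13.9, 11.6, 11.2, 9.96 and 7.68 TPM, and each overlapped its neighbour in this order. Tcf7l2 exceeded Foxc1 in 5 of 6 libraries, Foxc1 exceeded Lhx2 in 4, Lhx2 exceeded Gata6 in 3 and Gata6 exceeded Runx1 in 5. The range of Tcf7l2 lay wholly above that of Runx1 (4.75 to 10.5 TPM). Below Runx1, whose lowest library had 4.75 TPM, came Tbx1 with at most 3.99 TPM and Tcf7l1 with 0.397 to 2.70 TPM. Tcf7l1 rested on few reads, between 6 and 55 counts per denervated library and between 18 and 55 per normal library.

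**Figure D1:**
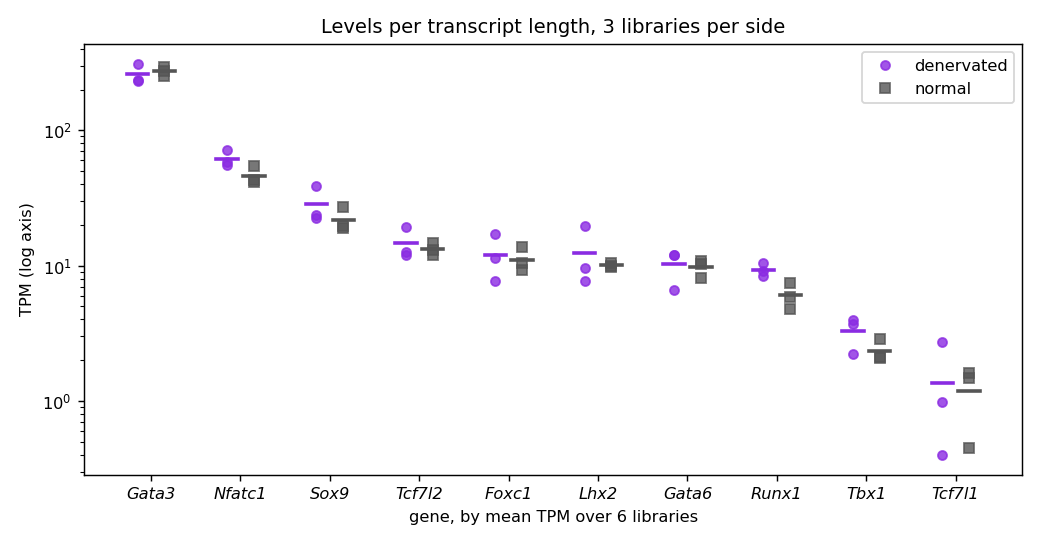
Level of each of the 10 factors in TPM on a log axis, with 3 denervated libraries (circles) left of 3 normal libraries (squares) and bars at the group means. Gata3 does not fall below 232 TPM in any library, and Tcf7l1 does not exceed 2.70 TPM.

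With the sides of each animal compared by edgeR's quasi-likelihood test (animal as block, adjusted over all genes tested, called below 0.05), 3 of the 10 factors were higher in denervated skin and none was lower. Runx1 rose 1.60-fold, Nfatc1 1.36-fold and Sox9 1.27-fold. Over all 12310 genes, 426 passed (3.46%), of which 355 were higher (2.88%) and 71 lower (0.577%), next to 172 higher and 118 lower when raw library totals served for scaling. The median log2 fold change was 0.15 over the 10 factors and −0.02 over all genes tested.

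Runx1, the DNA-binding partner of Cbfb that promotes the entry of follicle stem cells into growth, lies on chromosome 16 (92601466 to 92826149, minus strand, GRCm38, which is mm10). It had 36.8, 32.2 and 38.5 CPM in the denervated libraries of animals 890, 892 and 899, against 17.4, 22.6 and 28.3 CPM in their normal libraries (CPM after TMM scaling, unless stated otherwise). All denervated values lay above all normal values, and the sides differed most in animal 890, where the normal library was lowest. The log2 fold change was 0.68 ± 0.13 SE (adjusted p = 0.0141, edgeR), and the log2 differences within animals 890, 892 and 899 were 1.08, 0.51 and 0.44. Without animal 890 the log2 fold change was 0.48 (adjusted p = 0.0133, edgeR). With so few animals that fit takes its variance mostly from other genes, so its p-value does not measure agreement between animals.

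Runx1 is transcribed from a distal and a proximal promoter that give different amino ends, and since it showed the largest called change among the factors, the sequence at each start (RefSeq, GRCm38.p6, minus strand, 250 bases before to 50 bases after the start) is given here. Capitals mark matches, on either strand, to short motifs of the factors' own families. The RUNX motif searched was TGTGGT. For NFAT factors the letters were GGAAAA. SOX and TCF sites share letters and were searched together as ACAAAG. LIM homeodomain sites were searched as TAATTA. The letters for Gata factors were AGATAA. Forkhead sites were searched as GTAAACA. The T-box letters were GGTGTGA.
Distal Runx1 start, chr16:92826025-92826324: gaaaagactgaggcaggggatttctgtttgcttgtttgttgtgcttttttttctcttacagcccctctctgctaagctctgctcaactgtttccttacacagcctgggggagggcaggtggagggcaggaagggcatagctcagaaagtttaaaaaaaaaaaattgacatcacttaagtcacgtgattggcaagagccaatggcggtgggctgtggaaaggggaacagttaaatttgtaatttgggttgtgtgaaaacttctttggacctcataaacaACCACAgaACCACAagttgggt
Proximal Runx1 start, chr16:92697280-92697579: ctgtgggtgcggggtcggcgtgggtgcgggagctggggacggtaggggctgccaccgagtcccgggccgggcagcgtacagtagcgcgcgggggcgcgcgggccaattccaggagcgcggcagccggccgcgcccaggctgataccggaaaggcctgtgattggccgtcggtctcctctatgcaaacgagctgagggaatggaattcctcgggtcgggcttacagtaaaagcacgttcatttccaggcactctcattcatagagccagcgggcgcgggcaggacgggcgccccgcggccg
The distal window held 2 RUNX matches, beginning 28 and 36 bases after the start, and no other motif, and the proximal window held none of the 7. A RUNX match was present in 16.8% of all 32851 promoter windows of the same length, and a match describes letters, not a bound site. G and C made up 45% of the distal and 69% of the proximal window. The deposited values are per gene, so they do not tell which start was used. The abundance-weighted transcript length of Runx1 was 7121, 7035 and 7103 bases in denervated and 7066, 7107 and 7098 bases in normal libraries, with overlapping ranges. Promoter entries were present for 7 of the 10 factors. Among the others of these, Foxc1 held 1 RUNX and 2 NFAT matches and Lhx2, at 1 of its starts, 1 NFAT match, where NFAT matches occurred in 23.4% of all windows. Tcf7l1 and Tcf7l2 held 1 match each for SOX and TCF (18.7% of all windows), and Tcf7l2 also 1 for Gata factors (11.2%).

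Nfatc1 (chromosome 18, 80606205 to 80713071, minus strand) had 151, 157 and 180 CPM in the denervated libraries of animals 890, 892 and 899, against 106, 115 and 141 CPM in their normal libraries. The groups did not overlap, and the log2 differences were 0.52, 0.45 and 0.35. Runx1 and Nfatc1 were the 2 of 10 factors whose groups did not overlap, both higher, where this held for 19% of all genes tested (9.76% higher and 9.21% lower). The log2 fold change was 0.44 ± 0.07 SE (adjusted p = 0.00977, edgeR). Leaving out each animal in turn kept it between 0.40 and 0.48, and all 3 of these fits called it. With 2 animals each, these fits take their variance mostly from other genes, so the calls do not measure agreement between animals.

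Sox9 (chromosome 11, 112782224 to 112787760, plus strand) had 51.3, 48.7 and 78.6 CPM in denervated libraries, against 40.0, 41.4 and 57.9 CPM in normal libraries, in the same order of animals. Animal 899 was highest on both sides, so the groups overlapped, although the denervated side was higher within each animal, by log2 differences of 0.36, 0.23 and 0.44. The log2 fold change was 0.35 ± 0.09 SE (adjusted p = 0.0442, edgeR). That call lay near the threshold: the adjusted p was 0.0726 without animal 892, 0.108 without animal 899 and 0.0943 when raw library totals replaced the TMM scaling.

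In edgeR the 3 calls rest on the comparison of the sides within an animal. Without the animal as block, the log2 fold changes were 0.66 for Runx1, 0.44 for Nfatc1 and 0.37 for Sox9, with adjusted p of 0.180, 0.186 and 0.492, and edgeR called 0 of all genes, with 1537 at an unadjusted p below 0.05 (12.5%). DESeq2 without the block called 381 genes, Runx1 (adjusted p = 0.00870) and Nfatc1 (0.0107) among them. With the block, DESeq2 called 492 genes, among them Runx1 (adjusted p = 0.00165), Nfatc1 (0.000161) and Sox9 (0.0441). On log2(TPM + 1), limma with the block called none of the 10 factors, with adjusted p of 0.159 for Runx1, 0.113 for Nfatc1 and 0.209 for Sox9. The authors' deposited table, whose design is not stated, lists log2 fold changes of 0.68, 0.45 and 0.38 for Runx1, Nfatc1 and Sox9, with adjusted p of 0.00344, 0.000163 and 0.0418. The SE listed there for Sox9 was 0.126, next to 0.122 in DESeq2 with the block and 0.192 without it. For the other factors, that authors' deposited table gives an adjusted p for Gata3 (0.832) and Tcf7l2 (0.772) alone.

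**Figure D2:**
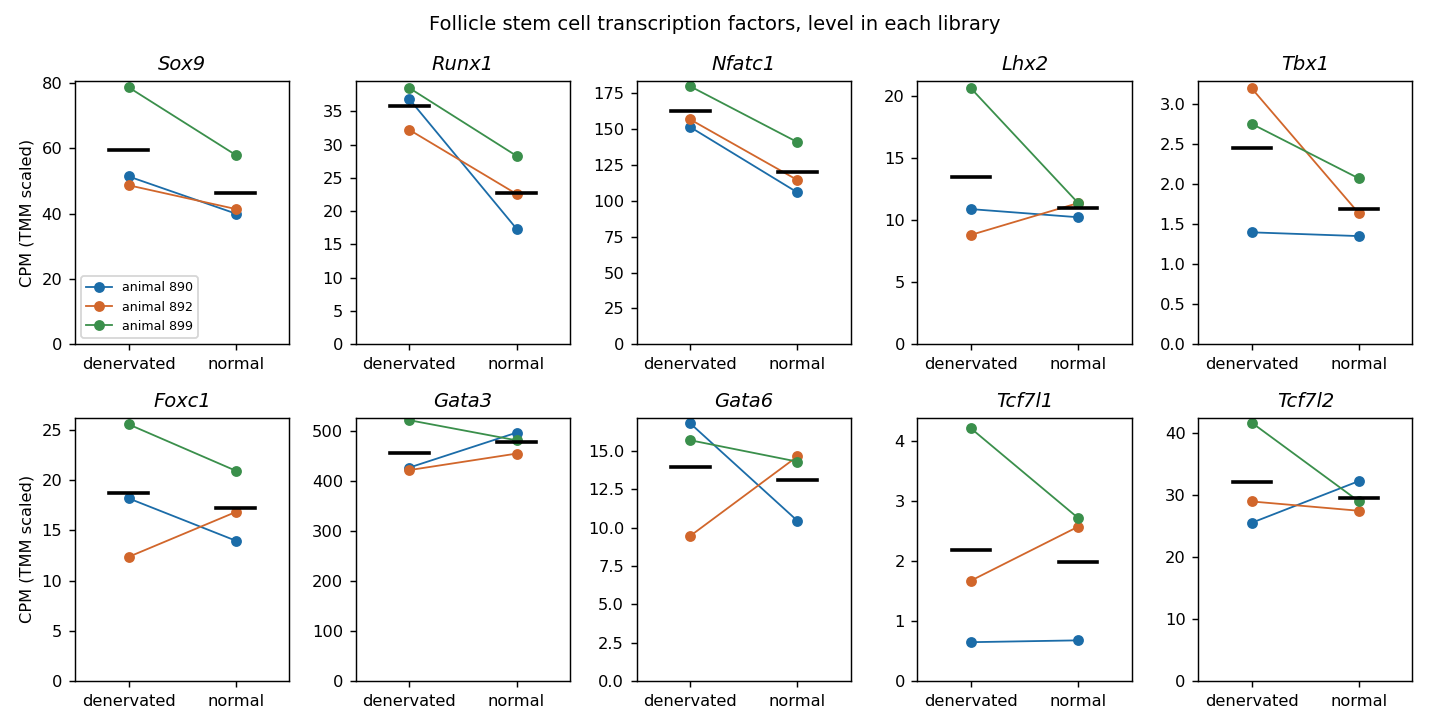
CPM after TMM scaling of each factor, with denervated libraries left of normal libraries, lines joining the sides of an animal and black bars at the group means; each panel has its own axis from 0. Runx1 and Nfatc1 separate the groups, and Sox9 is higher on the denervated side of each animal although the groups overlap.

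Of the other bulge factors none passed, and their sides did not differ in 1 direction, apart from Tbx1. Lhx2, a LIM homeodomain factor of the bulge and hair germ, had 10.9, 8.80 and 20.6 CPM in denervated libraries, against 10.2, 11.4 and 11.4 CPM in normal libraries. The denervated values lay on either side of the normal ones, with the highest in animal 899 and the lowest in animal 892. The log2 fold change was 0.21, with a 95% interval from −0.23 to 0.64 (adjusted p = 0.638, edgeR), and −0.14 without animal 899.

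Foxc1, a forkhead factor that returns activated bulge cells to rest, had 18.2, 12.4 and 25.6 CPM in denervated libraries, against 14.0, 16.8 and 20.9 CPM in normal libraries. It was higher on the denervated side in animals 890 and 899 and lower in animal 892. Its log2 fold change was 0.08 (95% interval −0.26 to 0.42, adjusted p = 0.837, edgeR), and −0.06 without animal 890.

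Tbx1, a T-box factor needed for bulge cells to renew themselves over repeated hair cycles, had 1.40, 3.20 and 2.76 CPM in denervated libraries, against 1.35, 1.64 and 2.07 CPM in normal libraries, from 13 to 44 counts per denervated and 29 to 36 counts per normal library. The denervated side was higher in each animal, by as little as 0.05 on the log2 scale in animal 890. Its log2 fold change of 0.51 had a 95% interval from −0.27 to 1.30 (adjusted p = 0.491, edgeR), which takes in the changes of the 3 called factors. With Runx1, Nfatc1 and Sox9, Tbx1 made 4 of 10 factors that were higher in 3 of 3 animals, which held for 19.3% of all genes tested. One common direction in 3 of 3 animals, higher or lower, was seen in 40.7% of all genes and in these 4 factors.

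The beta-catenin partners Tcf7l1 and Tcf7l2, which repress or activate Wnt targets depending on beta-catenin and are known from the bulge and outer root sheath, showed no common direction. Tcf7l2 had 25.5, 28.9 and 41.6 CPM in denervated libraries, against 32.2, 27.4 and 29.0 CPM in normal libraries. Animal 890 was lower and animals 892 and 899 were higher on the denervated side. The log2 fold change was 0.09 (95% interval −0.20 to 0.39, adjusted p = 0.767, edgeR). Tcf7l1 had 0.646, 1.67 and 4.21 CPM in denervated libraries, against 0.677, 2.57 and 2.72 CPM in normal libraries. The libraries of animal 890 were the lowest on both sides, at 6 counts on the denervated and 18 on the normal side. Its log2 fold change was 0.02 with a 95% interval from −0.85 to 0.88 (adjusted p = 0.989, edgeR), a range that includes a change as large as that of Runx1 in either direction.

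The Gata factors did not pass either. Gata3, which specifies the inner root sheath and takes part in epidermal barrier formation, had 427, 422 and 522 CPM in denervated libraries, against 497, 455 and 481 CPM in normal libraries. It was lower on the denervated side in animals 890 and 892 and higher in animal 899. Its log2 fold change was −0.07 with a narrow 95% interval from −0.25 to 0.11 (adjusted p = 0.710, edgeR), whose upper end lay below the fitted changes of Runx1, Nfatc1 and Sox9. The difference between genes was not tested.

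Gata6, the factor of the junctional zone and sebaceous duct, had 16.8, 9.45 and 15.7 CPM in denervated libraries, against 10.4, 14.6 and 14.3 CPM in normal libraries. It differed most in opposite directions, being higher on the denervated side in animal 890 and lower in animal 892. The log2 fold change was 0.07 (95% interval −0.37 to 0.50, adjusted p = 0.897, edgeR), 0.43 without animal 892 and −0.24 without animal 890.

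**Figure D3:**
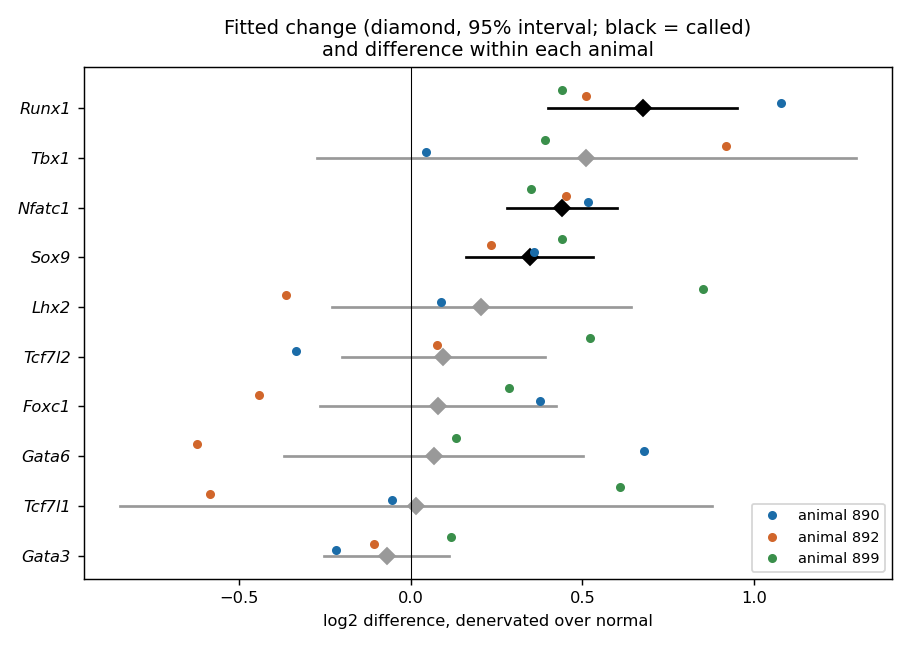
Fitted log2 fold change of each factor, denervated over normal (diamonds with 95% intervals, black where called), and the log2 difference within each animal (coloured points). The points of Runx1, Nfatc1, Sox9 and Tbx1 all lie right of 0, and those of Gata6 run from −0.62 to 0.68.

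Some of these genes overlap others in the annotation (GENCODE M21). An antisense gene shares exon positions with Runx1 and another with Gata3, and neither was in the matrix used here. Gata6 shares exon positions with 1010001N08Rik on the other strand (0 to 11 counts per library) and Tcf7l1 with Gm15401 (0 counts). The library kit was directional, but the strand setting of the counting is not given in the sources used here, so reads of such partners cannot be told apart from those of the factor. Sox9, Tbx1 and Foxc1 overlap no other annotated gene. Of 9230102O04Rik, which overlaps Gata3 on the same strand, the matrix held 6 to 21 counts per library.

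The surface and keratin markers of the bulge gave no call. Of 13 tested bulge and hair germ genes none passed, 7 having a positive and 6 a negative log2 fold change (median 0.00). Cdh3, the P-cadherin of the hair germ, came closest (203 ± 13.5 CPM in denervated and 175 ± 9.82 CPM in normal libraries, adjusted p = 0.124, edgeR), followed by Hopx, a homeodomain cofactor of the bulge, at a log2 fold change of −0.17 (adjusted p = 0.376). Cd34, the surface marker by which bulge cells are usually sorted, had 12.5, 3.93 and 12.6 CPM in the denervated libraries of animals 890, 892 and 899, against 8.64, 10.8 and 14.2 CPM in their normal libraries. It was thus lowest in the denervated library of animal 892. In that library Lhx2, Foxc1, Gata6 and Gata3 also stood at their lowest values of the 6 libraries. Of the 13 bulge markers, however, only Cd34 and Cd200 did, and S100a6 stood at its highest. Cd34, Lgr5 and the other bulge markers named beside them were named after their values were seen.

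Lgr5, the R-spondin receptor of the bulge and hair germ, had 3.77, 3.05 and 6.12 CPM in denervated libraries, against 1.95, 3.27 and 4.29 CPM in normal libraries. It was highest in the denervated library of animal 899, where Lhx2, Foxc1, Tcf7l1, Tcf7l2, Gata3, Sox9, Runx1 and Nfatc1 were highest as well. Of the 13 bulge markers 4 were highest there (Lgr5, Dkk3, Wif1 and Npnt), and Krt24 and S100a6 were lowest there. Among the normal libraries, that of animal 899 was likewise highest for Lgr5, Sox9, Runx1, Nfatc1, Foxc1 and Tcf7l1. Tcf7l2 and Gata3 were highest in the normal library of animal 890. The summed level of the whole bulge list, in CPM on library totals, was 4911, 5757 and 5523 in denervated and 5314, 6798 and 6050 in normal libraries of animals 890, 892 and 899, lower on the denervated side in each animal. Krt15 alone made up most of that sum, so its direction is mainly that of Krt15 and not of the other markers. After TMM scaling Krt15 had 4416, 5180 and 4959 CPM in denervated libraries, against 4629, 5901 and 5319 CPM in normal libraries. It did not pass (log2 fold change −0.12, adjusted p = 0.565, edgeR). Within animals 890, 892 and 899, the log2 differences were 0.91, −0.10 and 0.50 for Lgr5 and 0.52, −1.43 and −0.18 for Cd34. In animal 899 all 10 factors were higher on the denervated side, against 7 in animal 890 and 5 in animal 892, with median log2 differences over the 10 of 0.42, 0.22 and −0.02 and over all genes tested of −0.01, −0.02 and −0.01. The part of the share of bulge cells per library in these values was not tested.

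**Figure D4:**
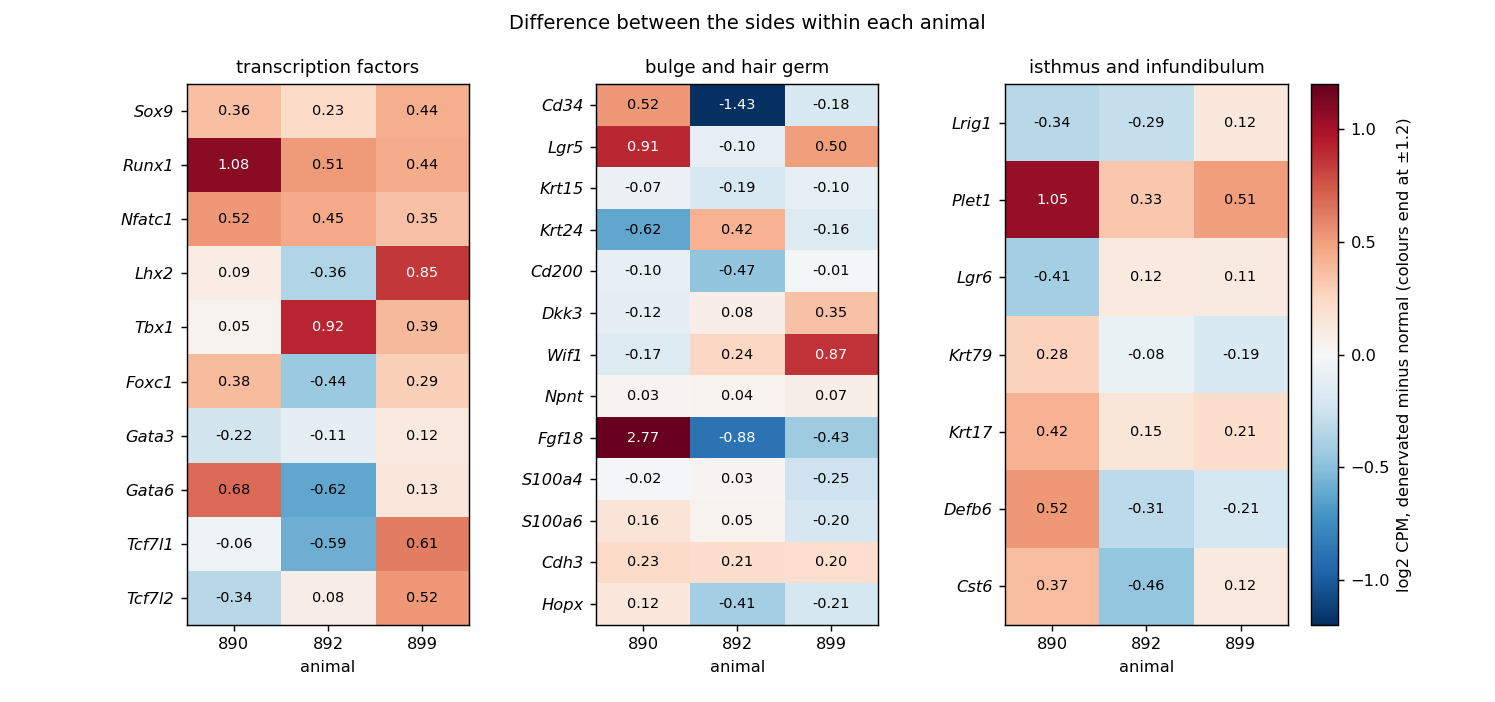
Difference in log2 CPM between the denervated and the normal side of each animal for the 10 factors, 13 bulge and hair germ markers and 7 markers of the isthmus and infundibulum; red is higher and blue lower on the denervated side. Runx1, Nfatc1, Sox9 and Tbx1 are above 0 in all 3 animals, as are the markers Cdh3, Npnt, Plet1 and Krt17. Cd34 ranges from −1.43 in animal 892 to 0.52 in animal 890.

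Among 7 markers of the isthmus and infundibulum, where follicular Lgr6 cells lie, 1 passed. Plet1, a surface protein of that region, rose to 690, 546 and 441 CPM in denervated libraries, against 333, 435 and 311 CPM in normal libraries (log2 fold change 0.63 ± 0.11 SE, adjusted p = 0.0120, edgeR). The groups did not overlap, and as with Runx1 the step was largest in animal 890.

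Of 14 tested sebaceous gland genes, Scd3, a fatty acid desaturase, fell (1.47 ± 1.49 CPM in denervated and 4.30 ± 3.21 CPM in normal libraries, adjusted p = 0.0325, edgeR) and Prdm1, a repressor of gland progenitors, rose (27.0 ± 8.54 and 18.9 ± 9.13 CPM, adjusted p = 0.0352). In both genes the groups overlapped. Scd3 was a low gene, and its value in the denervated library of animal 890, 0.108 CPM, lay below the counting floor of 0.312 CPM. Of the 14 genes, 12 had a negative log2 fold change (median −0.31), as did 6731 of all 12310 genes tested. In 5 of the 14 the groups did not overlap (Scd1, Elovl3, Fa2h, Cidea and Acsbg1). All of these were lower in denervated libraries, which held for 9.21% of all genes tested. None of them passed, and they were named after their values were seen. None of 11 suprabasal genes passed, with Dsc1 (−0.27, adjusted p = 0.127) and Tgm3 (0.43, adjusted p = 0.180) closest, and none of 7 genes of the hair matrix, shaft and inner root sheath, with Foxn1 (−0.23) and Dlx3 (−0.34) closest.

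The relatives and partners of the factors gave few calls. Of 7 genes of the Runx family and its cofactors, Tle4, a Groucho corepressor that Runx and Tcf factors recruit, rose. It had 204, 180 and 205 CPM in denervated libraries, against 146, 136 and 173 CPM in normal libraries (log2 fold change 0.38 ± 0.08 SE, adjusted p = 0.0188, edgeR), with no overlap between the groups. Cbfb, the obligate partner of Runx1, stood at 128 and 116 CPM on average in denervated and normal libraries and did not pass (adjusted p = 0.363), nor did Runx2 (adjusted p = 0.552); both were named after their values were seen.

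Of 12 tested forkhead genes, Foxp1, a forkhead repressor of follicle stem cells that keeps them quiescent, rose. It had 105, 111 and 112 CPM in denervated libraries, against 75.2, 80.2 and 95.8 CPM in normal libraries (log2 fold change 0.39 ± 0.08 SE, adjusted p = 0.0211, edgeR). All denervated values lay above all normal ones. In a list of 14 other keratinocyte transcription factors, which shares Foxp1, the further call was Klf5, a zinc finger factor of basal progenitors, with 443, 425 and 499 CPM in denervated libraries, against 318, 299 and 360 CPM in normal libraries. Its log2 differences were 0.48, 0.51 and 0.47 in the 3 animals, the log2 fold change was 0.49 ± 0.07 SE and the adjusted p was 0.00657 (edgeR). The median log2 fold change of that list was 0.13.

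None of 11 tested genes of NFAT and calcineurin other than Nfatc1 passed. The feedback regulator of calcineurin Rcan3 (8.90 ± 0.876 CPM in denervated and 13.4 ± 1.53 CPM in normal libraries, log2 fold change −0.59, adjusted p = 0.0586, edgeR) and the osmotic stress factor Nfat5 (984 ± 9.20 and 792 ± 66.1 CPM, 0.32, adjusted p = 0.0597) came closest, and in both the groups did not overlap. Rcan1, of the same family as Rcan3, averaged 158 CPM in denervated and 146 CPM in normal libraries. It did not pass (0.10, adjusted p = 0.516, edgeR) and was named after its values were seen. None of 8 tested Sox genes other than Sox9 passed, with Sox6 (0.19, adjusted p = 0.203) and Sox21 (−0.27, adjusted p = 0.215) closest.

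Likewise none passed among 6 LIM homeodomain genes and partners, 3 T-box genes and 2 genes of the Gata family and its cofactors. The closest of these were Ldb1 (−0.18, adjusted p = 0.245), the adaptor that Lhx2 binds, and Ssbp4 (0.14), Tbx21 (−1.42, adjusted p = 0.170), a T cell factor at 0.548 CPM in denervated and 1.49 CPM in normal libraries, and Mga (−0.07), and Trps1 (0.14) and Zfpm1 (0.07). Of 11 tested Tcf/Lef genes and beta-catenin cofactors the call was Tle4 again. Lef1, the Tcf relative of the hair matrix, did not pass the filter on low counts.

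Of 6 genes placed downstream of the factors by studies of mouse follicles, none passed. Cdh1, the E-cadherin gene lowered in follicle cells without Foxc1, stood at 1703 ± 68.4 CPM in denervated and 1352 ± 104 CPM in normal libraries (adjusted p = 0.0527, edgeR), with no overlap between the groups. Inhbb, an activin subunit downstream of Sox9, stood at 5.83 ± 0.608 and 4.53 ± 1.02 CPM (adjusted p = 0.424). Cdk4, which Nfatc1 represses, had a log2 fold change of −0.10 (adjusted p = 0.534) and was named after its values were seen.

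**Figure D5:**
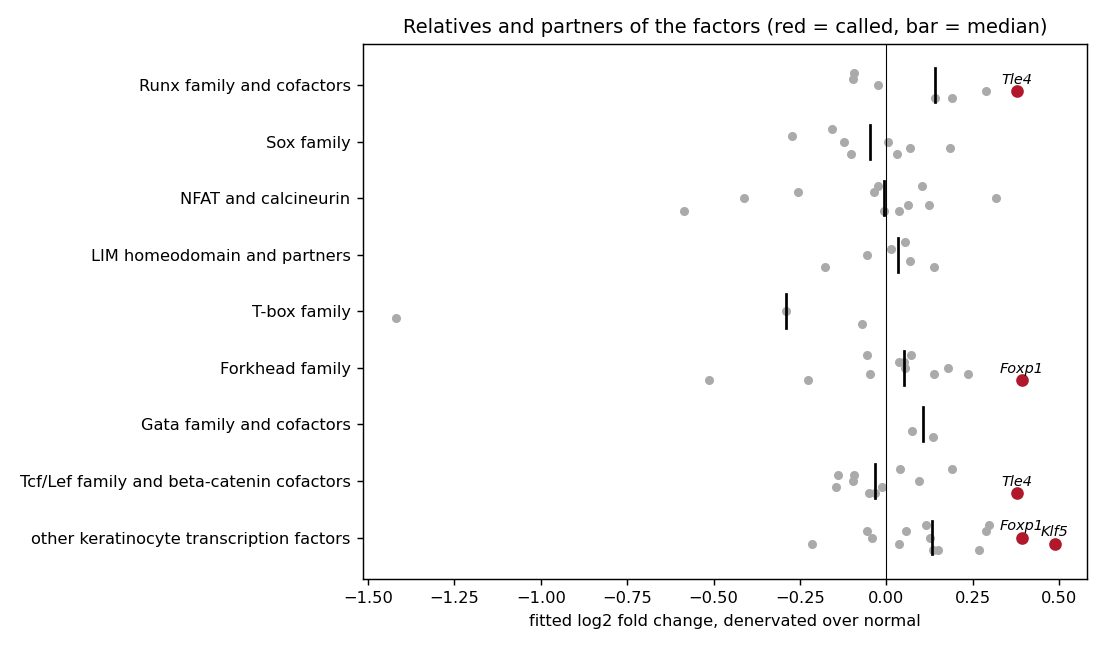
Fitted log2 fold change, denervated over normal, of each tested relative or partner of the factors in 9 lists (points, red where called at an adjusted p below 0.05), with a bar at the median of each list. The calls are Tle4 and Foxp1, each in 2 lists, and Klf5, all above 0.

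The genes whose 6 library values ran most like those of a called factor were sought among genes of at least 10 CPM, by the root mean square difference of log2 CPM centred on each gene's own mean over the 6 libraries. Nearest to Nfatc1 were Shb (0.0488), Clic4 (0.0488) and Lsm12 (0.0522). Nearest to Runx1 were Rap2b (0.0750), Noct (0.0842) and Slc19a2 (0.0987), and nearest to Sox9 Arid5a (0.0907), Map3k6 (0.0990) and Synpo (0.103). No gene was among the nearest of more than 1 factor.

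Several of these factors are also used by immune, vascular or dermal cells, and markers of such cells are given as CPM on library totals. Of 10 T cell markers, which matter for Gata3, Runx1 and Nfatc1, Cd3d did not exceed 0.725 CPM in any library and Cd3e averaged 2.32 CPM in denervated and 1.24 CPM in normal libraries after TMM scaling, and Thy1, at up to 152 CPM, made up most of the summed level of 94.0 to 157 CPM in denervated and 109 to 133 CPM in normal libraries. Of 5 tested members none passed, with Cd3e at a log2 fold change of 0.92 (adjusted p = 0.232, edgeR) and Thy1 at 0.14. Of 10 Langerhans cell and myeloid markers, Cd74 reached 73.9 CPM and Ptprc 2.57 CPM, with sums of 114 to 158 CPM in denervated and 89.2 to 155 CPM in normal libraries. None of 8 tested members passed. All 8 had positive log2 fold changes (median 0.26, range 0.06 to 0.60), as did 5579 of all 12310 genes tested. Of the 8, 3 were higher in 3 of 3 animals, which held for 19.3% of all genes tested. Cd74 (0.28, adjusted p = 0.198) and H2-Aa (0.24) had the smallest p. Runx1 is expressed by such cells as well, and their part in its change was not tested.

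The endothelial genes Cdh5, Emcn and Sox17 had no count in any library, and 8 endothelial markers, which matter for Nfatc1 and Foxc1, summed to 3.54 to 3.99 CPM in denervated and 4.17 to 5.80 CPM in normal libraries. Their part in the values of Nfatc1 and Foxc1 was not tested. Flt1 (−0.67) and Pecam1 (0.59) came closest to passing. The 9 fibroblast and dermal papilla markers summed to 1.77 to 2.64 CPM in denervated and 1.99 to 5.31 CPM in normal libraries, with Lum, Corin and Twist2 at 0 and Col1a2 (−1.11) and Vcan (0.00) named by the rule. Melanocyte markers were represented by Mitf (0.04) and Dct (0.38), with Mlana at 0, and summed to 12.4 to 24.0 and 17.5 to 20.3 CPM. Schwann cell markers summed to 385 to 432 and 353 to 419 CPM, nearly all from Erbb3 (0.18), a receptor that keratinocytes express as well, with Ngfr at −0.36 and Cdh19 at 0. Merkel cell markers did not exceed a sum of 1.06 CPM in denervated or 1.57 CPM in normal libraries, with Krt20 at 0.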

How the data were processed

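RNA was measured in 6 libraries (3 denervated, 3 normal). Tools named in the submitters' processing notes are STAR (2.6.1a) and Salmon (0.11.2), and the build is mm10; which tool made which table, the annotation and the counting options were not given in the sources used here. Raw counts per gene, deposited by the authors, entered the tests. Salmon's estimated counts per gene, with TPM and lengths, were deposited by the authors for each library, per the file headers. The authors also deposited a table of their comparison, with log2 fold changes, p-values, a test score and the mean normalised signal of each side, per the file headers.

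Counts of all genes were fitted with edgeR 4.0.16 in R 4.3.3, with TMM factors, filterByExpr (minimum count 10, minimum total 15), the quasi-likelihood test, animal as block and Benjamini-Hochberg adjustment over 12310 genes, called below 0.05. The animal number of the titles pairs the samples, since the labels state that the sides were taken from 1 mouse. Deviations from the group means correlated at 0.356, 0.361 and 0.443 across genes for the 3 pairs. The SE was derived from the F statistic. Log2 CPM used a prior count of 2. Libraries of a group were no duplicates, with a chi-square of 12.8 to 19.3 per degree of freedom. Alternatives used DESeq2 1.42.0, estimated counts rounded to whole numbers, and limma 3.58.1 on log2(TPM + 1), a scale that understates the change of low genes. The fit was tested on simulated data. P-values rest on the differences within 3 animals, with the variance of each gene moderated towards that of other genes. They therefore do not measure the spread between the 3 animals for that gene alone. In fits that leave out an animal, the variance comes mostly from other genes. Counting floors cover counting error only.

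The genes and lists were chosen with earlier results of these data known. Named genes were all 10 factors, the sort markers Lgr6, Itga6, Krt5 and Krt14, from each list up to 4 called members or otherwise the 2 with the smallest p, and for each called factor the 3 genes nearest in pattern, predicted genes left out. Not every gene that this rule names is reported here.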

Additional observations from a re-analysis of the deposited data

How the results depend on the processing

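Without the animal as block, edgeR called 0 of the 10 factors and 0 of all genes, with log2 fold changes of 0.66 (Runx1), 0.44 (Nfatc1) and 0.37 (Sox9). With library totals Sox9 stood at 0.28 and was lost, Tcf7l1 was at −0.043, and 172 genes were higher and 118 lower. DESeq2 without the block did not call Sox9 (0.37). On TPM, limma with the block called 1 gene, which was lower, 0 higher genes and 0 factors. Runx1, Nfatc1 and Sox9 stood there at 0.57, 0.41 and 0.33 with a pseudocount of 1, with or without the filter, and at 0.64, 0.42 and 0.34 with 0.1. With no filter on low counts 987 genes passed (692 higher, 295 lower), and at an adjusted p of 0.1 it was 820 (603 higher, 217 lower). Lower calls numbered 43 in DESeq2 with and 30 without the block, and 46 with estimated counts. The causes were not tested.

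Leaving out each animal (with the block) or each library (without the block) gave 0 to 976 called genes, 0 to 671 higher and 0 to 305 lower, and 0 to 3 called factors. Single libraries gave 0 calls except for 42 when normal 899 was left out, and the animals gave 385, 248 and 976 without 890, 892 and 899. Log2 fold changes ran from 0.12 to 0.55 for Sox9, 0.48 to 0.85 for Runx1, 0.35 to 0.56 for Nfatc1, −0.16 to 0.54 for Lhx2, −0.17 to 0.37 for Foxc1, −0.17 to 0.0037 for Gata3, −0.24 to 0.43 for Gata6, −0.70 to 0.60 for Tcf7l1 and −0.12 to 0.30 for Tcf7l2. Tbx1 was positive and not called in all 21 alternatives. Tcf7l1 and Tbx1 had the fewest counts of the factors, 6 to 55 and 13 to 44 per library.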
